A study of Homo sapiens with 6 samples.

Results

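MHC class II molecules are cell surface proteins that show peptides from endosomes to helper T cells. Each is a pair of an alpha and a beta chain, built as HLA-DR, HLA-DQ or HLA-DP. The invariant chain CD74 guards the peptide groove on the way to the endosome, and HLA-DM then helps to load the peptide. The genes share a promoter module to which the RFX complex and NF-Y bind, and the transactivator CIITA, which joins these factors without binding DNA itself, sets how far the genes are transcribed. Most epithelial cells carry little class II until interferon gamma induces CIITA. The set described here is CIITA, CD74, HLA-DRA, HLA-DRB1, HLA-DRB5, HLA-DPA1, HLA-DPB1, HLA-DQA1, HLA-DMA and HLA-DMB. All 10 genes had a row of their own among 22465 genes with a single symbol. For each gene the transcript cluster (a set of probes summarised into 1 value) that had the highest mean signal on the 6 arrays together was kept. The clusters were thus selected on level and not directly on the difference between groups. That level includes the shDAXX arrays, so a larger rise can help a cluster to be kept. The family itself was drawn up with the rise of HLA-DRB1 and other results of these arrays known, so its counts describe these genes and are not independent evidence.

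The cells were MDA-MB-231, an established human triple-negative breast cancer line. One group carried a lentiviral scrambled hairpin (shControl, 3 arrays), and the other a lentiviral hairpin against DAXX (shDAXX, 3 arrays). Both groups were stable puromycin-selected populations, a single DAXX hairpin, driven by the human H1 promoter, was used, and the labels put the cells in complete DMEM for 24 hours. DAXX is a histone chaperone and transcription regulator, and the comparison asks which transcripts differ when it is lowered.

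Levels are deposited log2 RMA signals, in which 1 unit is a doubling, and they were not compared between genes. DAXX read 7.49, 7.48 and 7.43 in shControl and 6.69, 6.67 and 6.61 in shDAXX, a log2 fold change of -0.81 (SE 0.060, adjusted p = 4.89e-04 by limma). DAXX was thus lower on every shDAXX array. Array medians over transcript clusters ran from 4.91 to 5.02. Arrays correlated at 0.9959 to 0.9965 within groups and 0.9907 to 0.9922 between groups. VIM, AXL, MSN and CAV1, which mark this mesenchymal-like line, were far above 4.957, the median of all cluster means and from here on the table's median, at 15.97 to 16.06, 15.80 to 15.88, 15.89 to 15.92 and 11.97 to 11.99 in shControl. In shDAXX, AXL, MSN and CAV1 were called lower, with log2 fold changes of -0.47, -0.58 and -0.30, and CD44, another marker of the line, was called higher (0.39). ESR1, PGR and CDH1, which the line lacks, were below the table's median in both groups. The submitters call the replicates biological, and the p-values measure the spread between these 6 cultures alone.

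The class II genes read higher in shDAXX with no overlap between the groups, HLA-DQA1 excepted. In the fit over all genes, limma called 9 of the 10 genes higher (adjusted p under 0.05 over all genes) and 0 lower, against a background of 4.30% of all genes called higher and 5.60% called lower. Every shDAXX array was above every shControl array for 9 of the 10 genes and for 14.0% of all genes. The median log2 fold change was 0.81 over the 10 genes and 0.01 over all genes. The rises ran from 0.49 for HLA-DMB to 3.18 for HLA-DRB1. In a whole culture, a higher signal can come from more transcript per cell or from more cells that carry it, and the arrays cannot tell these apart.

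**Figure D1:**
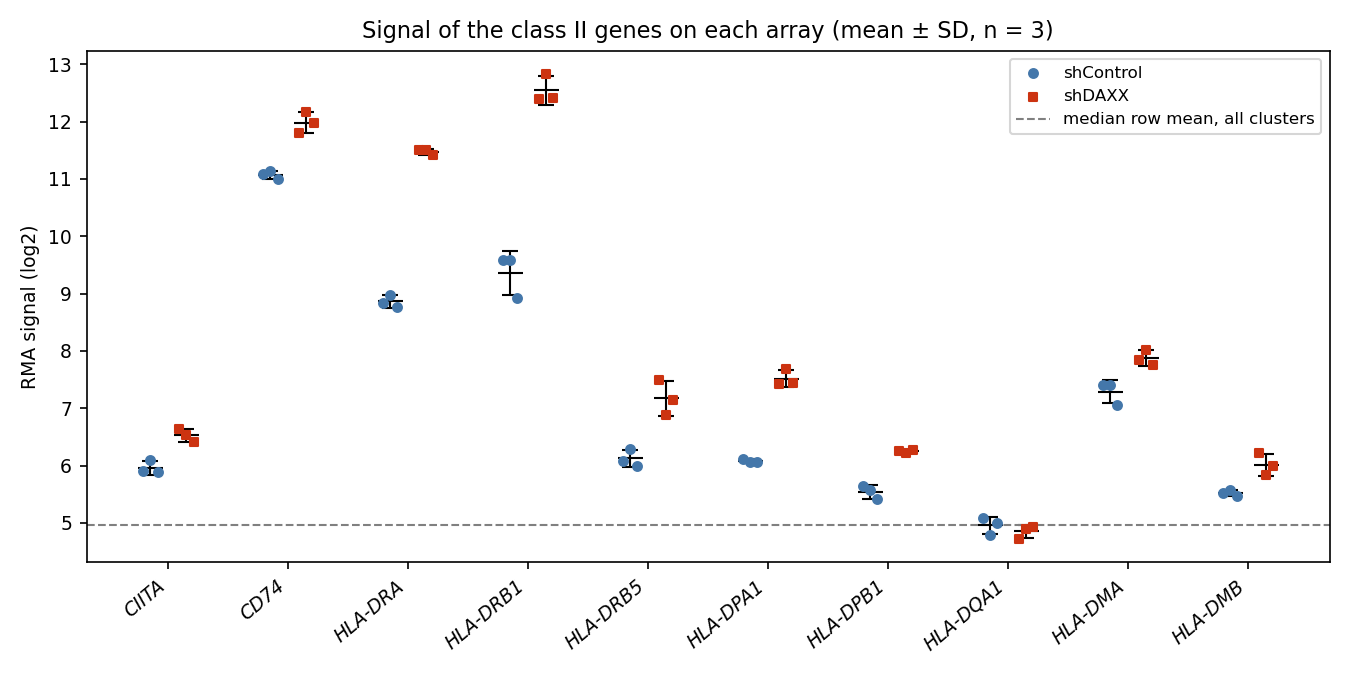
RMA signal (log2, y axis) of the 10 class II genes (x axis) on each shControl array (circles) and shDAXX array (squares), with mean ± SD bars (n = 3 per group) and the median row mean of all transcript clusters as a dashed line at 4.957. The groups are apart for 9 genes and overlap for HLA-DQA1, which lies at the dashed line.

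The transactivator was higher in the knockdown cells. CIITA read 5.90, 6.09 and 5.88 in shControl and 6.64, 6.53 and 6.41 in shDAXX. The lowest shDAXX array was 0.32 above the highest shControl array. The means were 5.96 ± 0.12 and 6.53 ± 0.12 (SD, n = 3), which is 1.49-fold or 0.57 on the log2 scale (SE 0.0905, adjusted p = 0.0103 by limma). Its rise ranked 342 among all genes, behind those of 7 of the other class II genes. When every transcript cluster of the array was tested, the adjusted p was 0.0537.

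HLA-DRA and HLA-DRB1, whose products form the most abundant class II molecule on most presenting cells, had the largest rises of the 10 genes. HLA-DRA, the invariable alpha chain, read 8.84, 8.98 and 8.77 in shControl and 11.51, 11.50 and 11.41 in shDAXX. The 3 values of each group lay within a narrow band, and the bands were 2.43 apart. The log2 fold change was 2.61 (SE 0.0765, 6.11-fold, adjusted p = 1.47e-05), and it stayed between 2.56 and 2.67 when any 1 array was left out. HLA-DRB1, the main and highly polymorphic beta chain, read 9.59, 9.58 and 8.92 in shControl and 12.39, 12.83 and 12.41 in shDAXX. Replicate 3 of shControl was the low one of its group, and the groups were still 2.80 apart. The means were 9.36 ± 0.38 and 12.54 ± 0.25 (SD, n = 3), which is 9.06-fold or 3.18 on the log2 scale (SE 0.208). Without that replicate it was 2.96. Since this rise was known when the family was drawn up, it is given as a description, and its place in any count of calls supports nothing. Of the other 9 genes, 8 were called.

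The cluster of HLA-DRB5, a second DR beta gene that only some haplotypes carry, read higher as well. Whether these cells carry the gene was not examined, and transcripts of other DR beta genes can bind its probes. The rise is thus not assigned to HLA-DRB5 itself. It read 6.08, 6.29 and 6.00 in shControl and 7.50, 6.89 and 7.14 in shDAXX. The knockdown arrays varied more than the controls, but the lowest was 0.60 above the highest control. The log2 fold change was 1.05 (SE 0.160, 2.08-fold, adjusted p = 0.0084).

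Both chains of HLA-DP rose too. HLA-DPA1 read 6.11, 6.06 and 6.07 in shControl and 7.42, 7.69 and 7.44 in shDAXX. Its control values were almost equal, and every knockdown array was at least 1.31 higher. The log2 fold change was 1.44 (SE 0.0869, 2.71-fold, adjusted p = 2e-04). HLA-DPB1 read 5.64, 5.58 and 5.41 in shControl and 6.25, 6.22 and 6.28 in shDAXX, and its log2 fold change was 0.71 (SE 0.0773, 1.63-fold, adjusted p = 0.00231). The difference between the chains' fold changes was not tested, and RMA understates changes of genes near background.

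The DQ alpha chain was not called. HLA-DQA1 read 5.09, 4.79 and 4.99 in shControl and 4.72, 4.90 and 4.93 in shDAXX. The values of the groups interleaved around the table's median. The log2 fold change was -0.11 with a 95% interval of -0.34 to 0.13 (limma adjusted p = 0.596), so a rise of the size seen for HLA-DPB1 lies outside the interval for this cluster. The cluster had the lowest of the log2 fold changes of the gene's 7 clusters, which ran up to 0.41. Since RMA shrinks differences at such dim levels, the interval does not exclude a rise of the transcript.

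CD74, the invariant chain, was bright in both groups and rose. It read 11.08, 11.14 and 10.99 in shControl and 11.80, 12.16 and 11.98 in shDAXX, with the groups 0.66 apart. The log2 fold change was 0.91 (SE 0.102, 1.88-fold, adjusted p = 0.00255), and it was 0.82 to 1.0 when any 1 array was left out.

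Both chains of the peptide loader HLA-DM were called higher, each with an adjusted p not far below 0.05. HLA-DMA read 7.40, 7.41 and 7.06 in shControl and 7.85, 8.02 and 7.75 in shDAXX, which is 1.50-fold or 0.58 on the log2 scale (SE 0.120, adjusted p = 0.0267 by limma). HLA-DMB read 5.53, 5.57 and 5.47 in shControl and 6.22, 5.84 and 5.99 in shDAXX, which is 1.41-fold or 0.49 on the log2 scale (SE 0.103, adjusted p = 0.0288 by limma). In both genes the groups did not overlap, the gap being 0.34 for HLA-DMA and 0.27 for HLA-DMB. Leaving out 1 array moved the adjusted p of HLA-DMA to between 0.0496 and 0.0802 and that of HLA-DMB to between 0.0242 and 0.0909, and each was above 0.05 in 5 of those 6 fits.

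One control array read low across the family. Replicate 3 of shControl was the lowest of its group for 8 of the 10 genes, and no shDAXX array was lowest or highest of its group for more than 4. Without it the log2 fold changes were 2.56 for HLA-DRA, 0.87 for CD74, 0.64 for HLA-DPB1, 0.53 for CIITA, 0.47 for HLA-DMA and 0.47 for HLA-DMB, and only the last 2 were no longer called (limma adjusted p = 0.0517 and 0.0909).

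The family was larger on the array than the 10 genes. Of 10 further class II chain genes and pseudogenes, 8 were measured, with a median log2 fold change of 0.20. Of these, 3 were called higher and 0 lower, against 4.30% and 5.60% of all genes. HLA-DRB4, a DR beta gene of some haplotypes, read 6.71, 6.53 and 6.21 in shControl and 7.91, 8.81 and 8.36 in shDAXX. Its log2 fold change was 1.88 (SE 0.233, adjusted p = 0.00387), and the groups were well apart. HLA-DQB1, the beta partner of HLA-DQA1, read 4.81, 4.65 and 4.51 in shControl and 5.45, 5.34 and 5.23 in shDAXX, a difference of 0.68 on the log2 scale (SE 0.0986, adjusted p = 0.00694 by limma). Its control values lay below the table's median and its knockdown values above it. The DR beta pseudogene HLA-DRB6 read 9.37, 8.68 and 8.11 in shControl and 9.85, 10.05 and 9.90 in shDAXX, a difference of 1.21 on the log2 scale (SE 0.286, adjusted p = 0.043 by limma). That call was lost in 5 of the 6 fits that left out 1 array (adjusted p = 0.0591 to 0.121). A second HLA-DRB6 cluster, on the main assembly, had a log2 fold change of 0.25 with overlapping groups (adjusted p = 0.495 over all clusters).

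The DO chains, which hold HLA-DM in check mainly in B cells, gave no call. HLA-DOB differed by -0.02 and HLA-DOA by less than 0.01 on the log2 scale. HLA-DQA2 differed by 0.10, HLA-DQB2 by 0.04 and the pseudogene HLA-DPB2 by 0.30, all with overlapping groups. HLA-DRB3 and HLA-DPA2 had no row with their symbol alone.

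**Figure D2:**
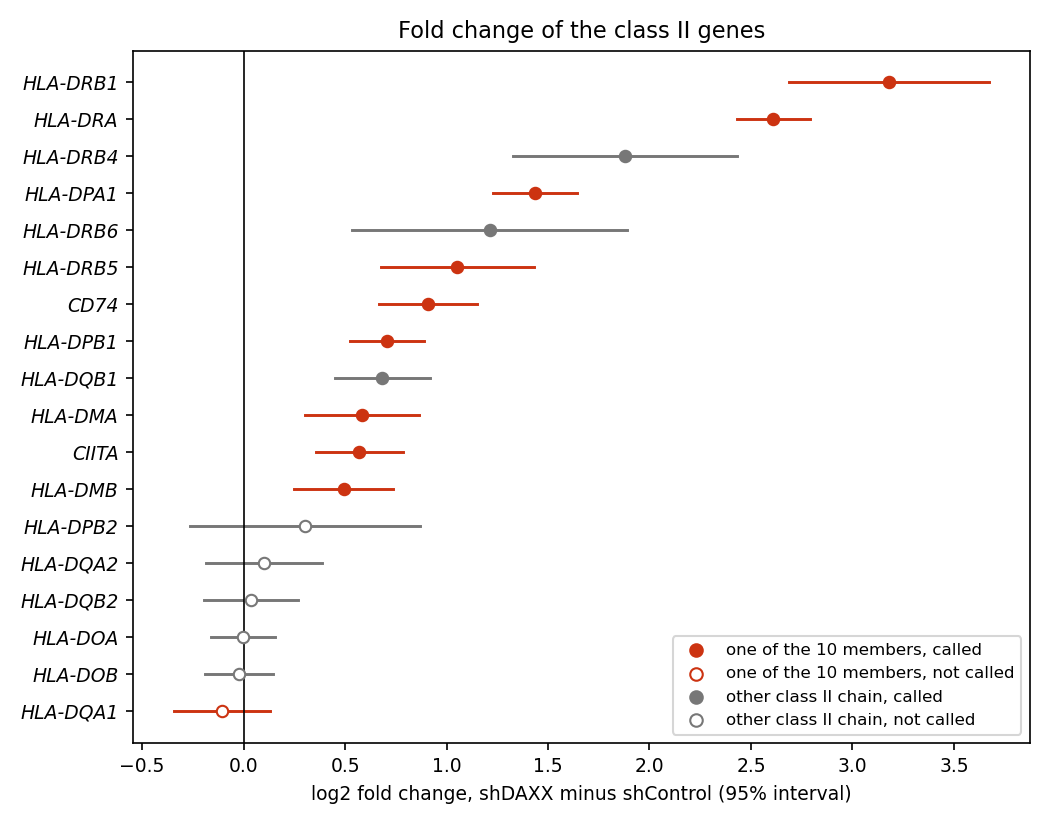
Log2 fold change (x axis, shDAXX minus shControl, with the 95% interval of the limma fit) of the 10 class II genes and 8 other class II chain genes (y axis, ordered by size), filled where called. HLA-DRB1 (3.18) and HLA-DRA (2.61) lead, and the intervals of HLA-DQA1, HLA-DOA, HLA-DOB, HLA-DQA2, HLA-DQB2 and HLA-DPB2 include 0.

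The class II region is so variable that the array holds clusters for several alternate haplotypes, and most genes had several clusters. In all, 51 clusters carried a symbol of the 10 genes alone, 41 of them on alternate haplotypes, with 38 distinct profiles, since some clusters of a gene held identical values. Tested over all clusters, 30 of the 51 were called higher and 0 lower, against 0.795% of all 67528 clusters called higher. All 7 clusters of HLA-DRA were called, with log2 fold changes of 2.49 to 2.63. All 8 of HLA-DPA1 (1.39 to 1.44) and all 8 of HLA-DPB1 (0.55 to 0.71) were called as well. The haplotype clusters of these genes thus gave nearly the same value whichever was kept.

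HLA-DRB1 was the gene for which the choice of cluster mattered most. The kept cluster, on an alternate haplotype, had a mean of 10.95 over all arrays, and the next, on the main assembly, a mean of 7.40. The latter read 6.81, 6.75 and 6.44 in shControl and 8.12, 8.0 and 8.30 in shDAXX, a log2 fold change of 1.47 in place of 3.18. Both showed the groups apart. Of 6 clusters shared by HLA-DRB1 with HLA-DRB3 or HLA-DRB4, 5 carried the symbols of HLA-DRB1 and HLA-DRB3, 3 of them with log2 fold changes of 3.02 to 3.39 and 2 with 1.58 and 1.61, and the cluster shared with HLA-DRB4 had 1.79. Over the 10 clusters that name HLA-DRB1, HLA-DRB3 or HLA-DRB4, all 10 were called higher (1.47 to 3.39). The DR beta genes are near-identical copies whose transcripts can bind each other's probes, so which of them carried the rise cannot be told apart here.

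HLA-DQA1 and the HLA-DM chains showed the opposite limit. None of the 7 clusters of HLA-DQA1 was called. The kept cluster had a mean of 4.90 and the next, on the main assembly, 4.80 with a log2 fold change of 0.01. The pair of clusters with the highest difference held identical values, 4.20, 4.16 and 4.40 in shControl and 4.56, 4.98 and 4.45 in shDAXX (0.41). All 7 clusters were dim, with means of 4.26 to 4.90. Of the 7 clusters of HLA-DQB1, 1 was called, the kept one, and the log2 fold changes ran from 0.25 to 0.68. That kept cluster had a shControl mean of 4.66, below the 4.78 of another HLA-DQB1 cluster, so its shDAXX signal decided the choice. Of 8 clusters each, 3 of HLA-DMB (0.49 to 0.59) and 0 of HLA-DMA (0.42 to 0.58) were called.

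**Figure D3:**
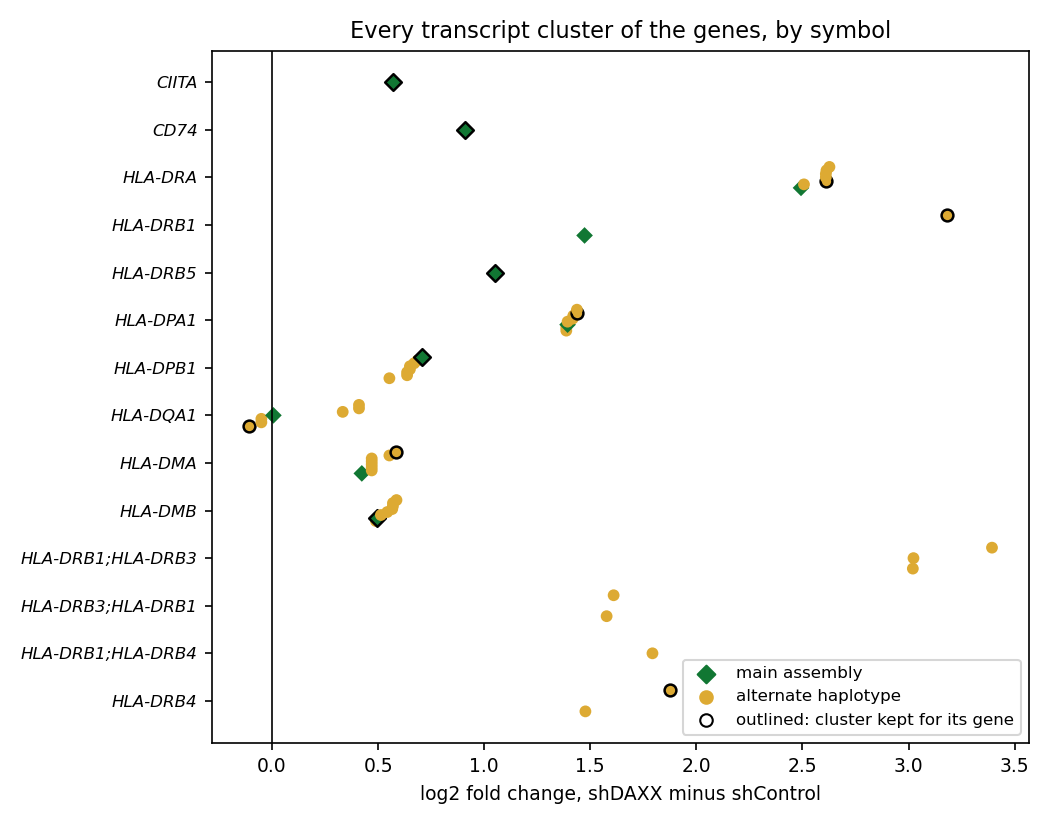
Log2 fold change (x axis, shDAXX minus shControl) of every transcript cluster by gene symbol (y axis), with diamonds for the main assembly, circles for alternate haplotypes and a black outline for the cluster kept. The clusters of HLA-DRA, HLA-DPA1 and HLA-DPB1 lie together, while those of HLA-DRB1 lie at 1.47 and 3.18.

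The promoters were searched for letters of the shared module. RefSeq promoter windows of 300 bases around the gene start (assembly GRCh38.p14) were at hand for 8 of the 10 genes, HLA-DRA and CIITA being named only. They were searched on both strands for the letters AGNNACNGATG, a form of the X box that the RFX complex binds, and for ATTGG, the core of the Y box that NF-Y binds. The letters were chosen with these promoters and the results known, and the motifs do not overlap. The X letters were in 0.817% of 35116 windows and the Y letters in 34.6%. Of the 8 genes, 4 held the X letters (HLA-DRB1, HLA-DRB5, HLA-DMA and HLA-DMB), and 7 held the Y letters, all but HLA-DPA1. Both sets of letters were present together in 0.288% of all windows. The stretches below are shown to set the genes with the X letters beside those without. Capitals mark the X letters and the nearest Y letters that follow, or, where there is no X match, the last Y letters of the window. All are on the strand of the gene, at chr6:32589880-32589937 (minus) for HLA-DRB1, chr6:32530363-32530420 (minus) for HLA-DRB5, chr6:32953162-32953220 (minus) for HLA-DMA, chr6:32941036-32941126 (minus) for HLA-DMB, chr6:33075870-33075929 (plus) for HLA-DPB1, chr6:32637293-32637352 (plus) for HLA-DQA1 and chr5:150412949-150413008 (minus) for CD74.
HLA-DRB1: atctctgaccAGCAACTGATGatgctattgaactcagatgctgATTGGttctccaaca
HLA-DRB5: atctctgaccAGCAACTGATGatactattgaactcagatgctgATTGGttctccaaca
HLA-DMA: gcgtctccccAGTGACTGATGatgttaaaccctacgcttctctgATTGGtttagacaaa
HLA-DMB: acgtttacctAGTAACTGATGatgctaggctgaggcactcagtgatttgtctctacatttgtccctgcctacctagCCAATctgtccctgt
HLA-DPB1: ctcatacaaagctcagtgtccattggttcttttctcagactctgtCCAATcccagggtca
HLA-DQA1: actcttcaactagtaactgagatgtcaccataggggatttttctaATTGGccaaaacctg
CD74: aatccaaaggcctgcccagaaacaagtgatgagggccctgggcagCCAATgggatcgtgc

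In HLA-DRB1 and HLA-DRB5, 22 bases lay between the X and the Y letters, and in HLA-DMA 23. In HLA-DMB there were 55, and the Y letters were on the opposite strand. The log2 fold changes of these 4 genes were 3.18 for HLA-DRB1, 1.05 for HLA-DRB5, 0.58 for HLA-DMA and 0.49 for HLA-DMB. HLA-DPA1 (1.44), CD74 (0.91) and HLA-DPB1 (0.71), with no X match, were called higher as well, and HLA-DQA1, with none, was not. Of 5 other class II chain genes with a window, HLA-DQB1 held the X letters and all 5 held the Y letters. A match is a description of the letters, and no match says only that this spelling is not in the window. The HLA-DPB1 stretch also holds an earlier Y match, left in lower case because only the last one was marked.

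The factors that bind this module and the CIITA cofactors were called about as often as genes at large. Of 15 listed, 14 were measured, and 1 was called higher and 1 lower, with a median log2 fold change of 0.03. Over all genes 4.30% were called higher and 5.60% lower, so 1 call in each direction among 14 genes is near that share. RFXAP, a subunit of the RFX complex, read 6.47, 6.36 and 6.53 in shControl and 7.11, 7.42 and 7.43 in shDAXX, a difference of 0.87 on the log2 scale (SE 0.104, adjusted p = 0.00339 by limma). The groups were clearly apart. Its partners RFX5 (0.08, adjusted p = 0.607) and RFXANK (0.01, adjusted p = 0.943) were not called. NFYA, a subunit of NF-Y, read 9.49, 9.60 and 9.57 in shControl and 9.30, 9.10 and 9.13 in shDAXX. The difference was -0.38 on the log2 scale (SE 0.077, adjusted p = 0.0265 by limma). That call was lost in 5 of the 6 fits that left out 1 array.

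Genes of the endosomal pathway that prepares peptides and trims the invariant chain were partly higher. Of 14 measured, 6 were called higher and 0 lower (4.30% and 5.60% of all genes), with a median log2 fold change of 0.29. CTSS, the cathepsin that makes the last cuts in CD74, read 6.38, 6.62 and 6.76 in shControl and 9.66, 9.72 and 9.58 in shDAXX. Its log2 fold change of 3.07 (SE 0.105, adjusted p = 2.06e-05) was close in size to that of HLA-DRB1. CD82, a tetraspanin of the class II compartment, rose by 0.81 (SE 0.069, adjusted p = 8.91e-04), and the lysosomal protease CTSB by 0.79 (SE 0.0663, adjusted p = 8.22e-04). IFI30, the lysosomal thiol reductase, had a log2 fold change of 0.43 and was not called (adjusted p = 0.153). Without shControl replicate 1, 3 of the genes in this list were called.

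The route from interferon gamma to CIITA was mixed. Of 17 genes measured, 6 were called higher and 1 lower (4.30% and 5.60% of all genes), with a median log2 fold change of 0.21. GBP2, an interferon-induced GTPase, rose by 0.82 (SE 0.0903, adjusted p = 0.00233). The receptor chain IFNGR1 rose by 0.69 (SE 0.0624, adjusted p = 0.00109) and the kinase JAK1 by 0.44 (SE 0.0605, adjusted p = 0.00569). SOCS3, a feedback inhibitor of cytokine receptors, fell by 0.49 (SE 0.0661, adjusted p = 0.00542). The cytokine itself, IFNG, read 4.07, 4.08 and 4.44 in shControl and 4.59, 4.31 and 4.33 in shDAXX, all below the table's median with overlapping groups. With shControl replicates 1, 2 or 3 or shDAXX replicates 1 or 3 left out, 3 genes of this list were called higher.

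Among 13 measured class I genes and partners, which show cytosolic peptides to killer T cells, 4 were called higher and 0 lower. The shares over all genes were 4.30% and 5.60%. The median log2 fold change of the 13 was 0.25. HLA-B rose by 0.67 (SE 0.0704, adjusted p = 0.00188), HLA-C by 0.49 (SE 0.07, adjusted p = 0.00685) and the shared light chain B2M by 0.37 (SE 0.0781, adjusted p = 0.0309). NLRC5, the class I counterpart of CIITA, differed by -0.03 (SE 0.0573, adjusted p = 0.841). The count was 2 without shControl replicate 1 or 3 or shDAXX replicate 2 or 3, 7 after quantile normalization, 2 with equal array medians and 1 with every cluster tested.

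CD74 is also the receptor of the cytokine MIF, with CD44 as the signalling partner. Of 6 genes of this receptor, CD44 alone was called higher, by 0.39 (SE 0.0655, adjusted p = 0.013 by limma), where 4.30% of all genes were called higher. It was no longer called without shDAXX replicate 2 (adjusted p = 0.0505) or 3 (adjusted p = 0.053). The call was also lost with the mean of its clusters (adjusted p = 0.207) and with every cluster tested (adjusted p = 0.0883). MIF had a log2 fold change of -0.24 (adjusted p = 0.124).

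Markers of leukocytes, many of which carry class II by nature, were called about as often as genes at large. Of 16 measured B cell, dendritic cell, monocyte and T cell markers, 0 were called higher, where 4.30% of all genes were. PTPRC, the common leukocyte antigen, was called lower by limma (-0.29, adjusted p = 0.0268), where 5.60% of all genes were. Both counts, 0 higher and 1 lower among 16 genes, are near those shares. PTPRC alone of the 16 markers had an unadjusted p under 0.05. Their summed linear signal was 457 to 492 in shControl and 460 to 495 in shDAXX, and 10 of the 16 were at or below the table's median in shDAXX. The B cell markers MS4A1 (4.39) and PAX5 (4.83) and the dendritic cell marker CLEC9A (4.57) were among these in shDAXX. The B cell markers CD79A (5.18) and CD79B (5.40) were above the table's median there. So were LYZ (5.78), CD3E (5.28), PTPRC (5.15) and CD14 (5.08). CD14 differed by 0.27 on the log2 scale with no overlap between the groups, and limma did not call it (adjusted p = 0.267).

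**Figure D4:**
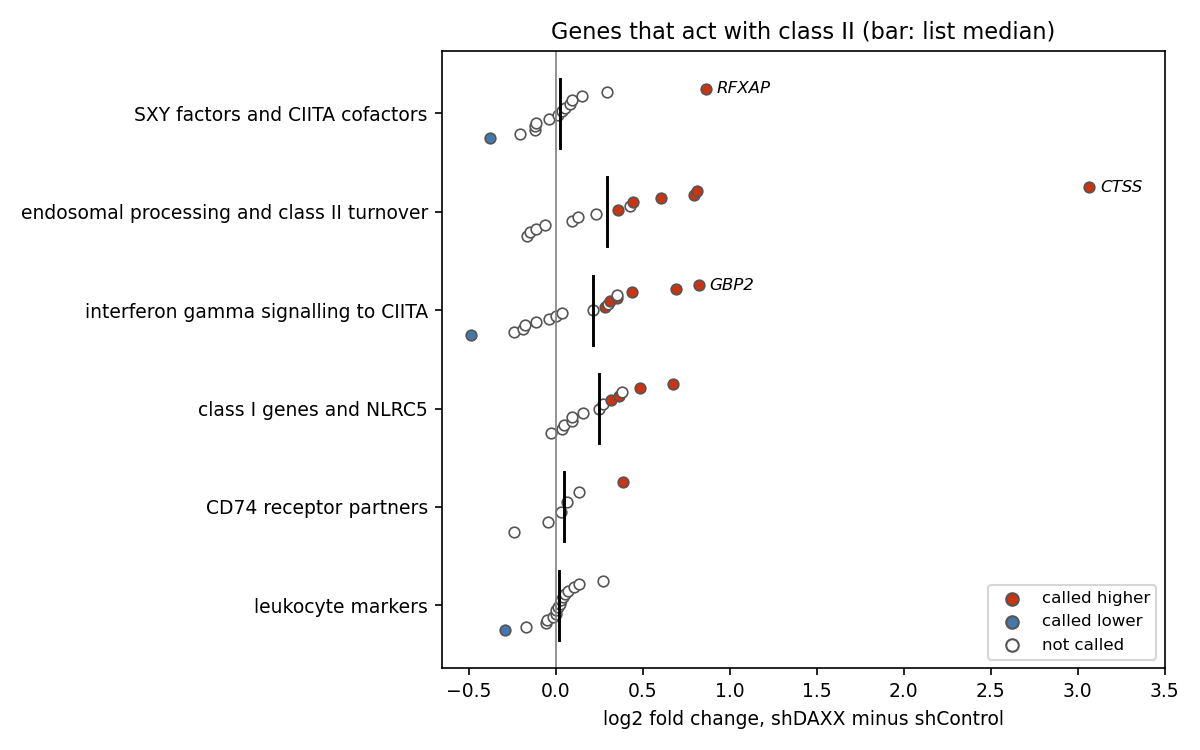
Log2 fold change (x axis, shDAXX minus shControl) of each measured gene in 6 lists (y axis), filled red where called higher and blue where called lower, with the list median as a black bar. CTSS (3.07) lies far from the rest, and the leukocyte markers lie around 0.02.

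DAXX lies in the same stretch of the genome as the class II genes, so the genes between them were set beside the family. On RefSeq GRCh38.p14, 32 protein-coding genes run from HLA-DRA to DAXX on chromosome 6, 13 of them class II chains. The start of DAXX is 242568 bases from that of HLA-DPB1, with 13 protein-coding genes between. Apart from DAXX and the class II chains, 18 genes of the stretch were measured, and limma called 0 higher and 0 lower. Over all genes 4.30% were called higher and 5.60% lower, so 0 calls among 18 genes is near that share. The lowest adjusted p were those of TAP1 (0.0578), TAP2 (0.0649, log2 fold change 0.27) and BRD2 (0.0652, -0.24), each with no overlap between the groups. Of the 18 genes, 7 had an unadjusted p under 0.05 by limma, and the methods' t-test (p under 0.05 and over 1.3-fold) gave 1 higher and 0 lower. Their log2 fold changes ran from -0.37 for VPS52 to 0.38 for the peptide transporter TAP1, with a median of 0.01. The class II genes of the same stretch ran from -0.11 to 3.18, and after quantile normalization 3 of the 18 other genes were called higher. HLA-DRA, HLA-DRB5 and HLA-DRB1 were called in a row, HLA-DQA2, HLA-DQB2 and HLA-DOB were uncalled in a row, and HLA-DQA1 and HLA-DOA each lay between called class II genes.

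**Figure D5:**
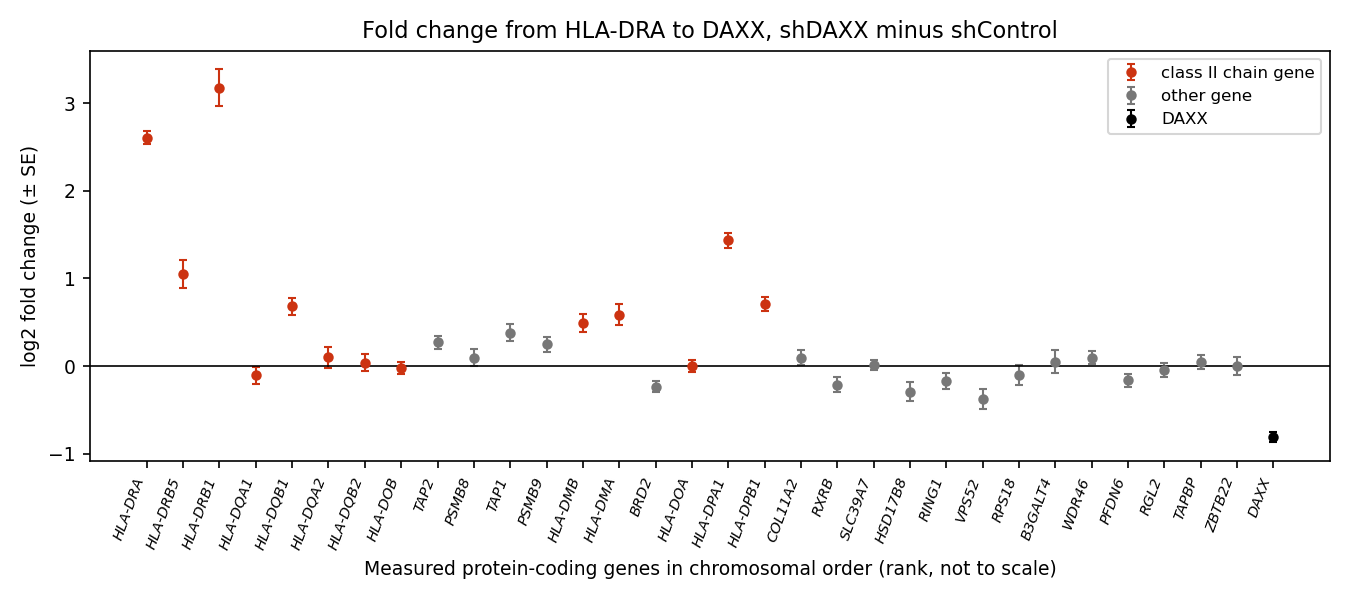
Log2 fold change ± SE (y axis, shDAXX minus shControl) of the measured protein-coding genes from HLA-DRA to DAXX in chromosomal order (x axis, ranks not to scale), with class II chains in red, other genes in grey and DAXX in black. Values over 0.4 occur among the class II chains, and DAXX is at -0.81.

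Other genes of the table had profiles close to that of HLA-DRB1. By the root mean square distance of log2 values, each gene centred on its mean over the 6 arrays, the nearest were the adhesion molecule ICAM1 (0.227), the tryptophan-degrading enzyme KYNU (0.242), the interferon-induced IFI27 (0.287), the metalloprotease ADAMTS9 (0.307) and CTSS (0.341). HLA-DRA followed at rank 6 (0.363). IFI27 read 5.83, 6.59 and 5.89 in shControl and 8.87, 9.25 and 8.89 in shDAXX, and replicate 2 was the highest of each group. Of the other members, HLA-DPA1 ranked 32 and CIITA 308 by this distance, which rests mostly on the size of the difference between the groups.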

How the data were processed

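The authors extracted total RNA and hybridised 200 ng per culture, as biotinylated cRNA, to 1-colour Affymetrix transcriptome arrays. The deposited values are log2 RMA signals, which the authors made by background correction, normalization and summary of probes in Affymetrix Expression Console (version not given). A batch correction is named in the methods for arrays run at different times, and no source says whether these had it. RMA shrinks differences near background. No source used here names the array's genome build, and gene positions come from RefSeq.

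Of 70523 rows, 67528 were transcript clusters. The annotation pairs 23781 with 1 symbol, 1543 with several and 42204 with none. The 22465 genes were compared with limma 3.58.1 in R 4.3.3 (moderated fit, two-sided, no covariates, Benjamini-Hochberg over all genes), with 3 arrays per group, which limits the precision. The script was tested on simulated data. Promoters were searched in Python 3.11.15. The text names the 10 members, other class II chains, up to 3 called genes per direction of each list by fold change, and the 5 profiles nearest HLA-DRB1, and other names were chosen after their values were seen. Members and lists were chosen with earlier results of these data known. Alternatives were other cluster rules, a filter on dim genes, scaling, a replicate block, eBayes settings, array weights, the methods' t-test and leaving out each array.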

Additional observations from a re-analysis of the deposited data

How the results depend on the processing

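Under 6 fits that left out 1 array each, 7 to 8 of the 10 class II genes were called higher and 0 lower. Of their 51 clusters, 17 to 18 were called higher in these fits, in place of 30 with all arrays, so many cluster calls were lost. With the methods' t-test and Benjamini-Hochberg adjustment 5 genes were called (CD74, HLA-DRA, HLA-DRB1, HLA-DPA1 and HLA-DPB1), with every transcript cluster tested 6, and with the methods' thresholds of p under 0.05 and over 1.3-fold 9. CD74, HLA-DRA, HLA-DRB1, HLA-DPA1 and HLA-DPB1 were called under all 16 alternatives. HLA-DQA1 was called under none of the 15 that could test it, the filter on dim genes having removed it. Of 159 values of the 10 genes under alternatives, 141 kept their call or lack of one, 18 lost it and 0 of the called values changed sign. Besides HLA-DMA and HLA-DMB, HLA-DRB5 (0.0683, methods' t-test) and CIITA (0.0537 with every cluster, 0.0534 with the methods' t-test) had an adjusted p above 0.05 in these fits. With the mean of a gene's clusters in place of the brightest, HLA-DRB1 had a log2 fold change of 2.33 and HLA-DQA1 of 0.14.

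With the replicate number as a replicate block, 8 of the 10 genes were called, HLA-DMB being lost (adjusted p = 0.0635). Same-numbered arrays correlated in their deviations from the group means at -0.0906, 0.221 and 0.0807, and differently numbered ones at -0.217 to 0.131. With 3 arrays per group these values cannot settle whether the numbers pair the samples, and nothing in the labels says that they do. Over all genes, the replicate block gave 606 higher and 868 lower in place of 967 and 1257, quantile normalization 1427 and 1108, equal array medians 617 and 1078, every cluster tested 308 and 494, and leaving out 1 array 515 to 609 and 722 to 857. Of the other genes in the lists, 114 values lost a call, 29 gained one and 1644 did neither. Signal near background limits HLA-DQA1, HLA-DQB1 and IFNG.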
